A study of Mus musculus with 6 samples.

Results

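The Notch pathway was followed through 10 of its genes in mouse cochlear sensory epithelium. They are the receptors Notch1, Notch2 and Notch3, the ligands Jag1, Jag2 and Dll1, and the target genes Hes1, Hes5, Hey1 and Hey2. They were taken by name and role in the pathway, with earlier results of these data known, and they are 10 of the 24411 genes in the deposited files. RNA-seq was performed at P9 on Kir2.1-OE mice, compound heterozygotes that carry 1 copy of Otof rtTA and 1 copy of a tet-o Kir2.1-IRES-tau-lacZ transgene, and on littermate controls that carry the heterozygous Otof rtTA alone. Both groups drank DOX (0.5 mg/ml) and were on a C57BL/6N background, so the rtTA allele and the drug were common to all 6 libraries. The design compares cochleae in which an inward rectifier K+ channel was switched on in hair cells with cochleae in which it was not. Each library was made from a pool of 8 cochleae of 4 mice, with 3 pools in each group, and n refers to pools throughout. The Otof promoter drives the transgene in hair cells, mainly inner hair cells (IHCs), whereas the RNA came from the dissected epithelium with its supporting cells and adjoining tissue. In such bulk samples, fewer cells of a type and less RNA in each cell cannot be told apart.

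Notch signaling works between touching cells. A ligand of the Jagged or Delta family on one cell binds a Notch receptor on its neighbor, the receptor is cut by an ADAM protease and then by gamma-secretase, and the freed intracellular domain enters the nucleus, where it joins RBPJ and a Mastermind protein to switch on genes of the Hes and Hey families of transcriptional repressors. In the developing cochlea, Jag1 marks the prosensory domain, Dll1 and Jag2 are made by nascent hair cells, and Notch1 with its Hes and Hey targets holds their neighbors in the supporting cell fate. Hey2 is known from the maintenance of pillar cells.

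Between 35430940 and 41205047 reads were assigned to genes in each library, and 15303 genes had enough reads to be tested, among them all 10 Notch genes. Kcnj2, which encodes Kir2.1, had 3612, 3813 and 2213 normalized counts (reads scaled for library size) in the Kir2.1-OE libraries and 235.8, 228.1 and 226.0 in the controls, each in the order of replicates 1, 2 and 3 kept below, so each library followed its label. Hair cell and supporting cell markers were detected in every library. Otof had between 1749 and 4089 normalized counts, Myo7a between 732.9 and 2113, and Sox2 between 3137 and 5105.

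Of the 10 Notch genes, 3 were higher in Kir2.1-OE, 1 was lower, and 6 were not called (edgeR quasi-likelihood test, Benjamini-Hochberg adjustment over all genes tested, with calls made where the adjusted p was under 0.05 and the difference over 1.5-fold). The 3 called higher were the 3 receptors and the 1 called lower was Hes5. Over all genes tested, 15.5% were called higher and 5.08% lower. The median log2 fold change was 0.91 for the receptors, 0.55 for the ligands and -0.50 for the target genes, against 0.38 for all 10 and 0.01 for all genes tested. In 5 of the 10 genes every Kir2.1-OE library lay above every control library, as in 31.7% of all genes tested, and in 2 every Kir2.1-OE library lay below, as in 29.9%. The other 3 overlapped. Against a log2 fold change of 0.6 (glmTreat), Notch1 and Notch2 alone among the 10 were called, both higher, beside 5.44% of all genes called higher and 0.372% called lower.

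**Figure D1:**
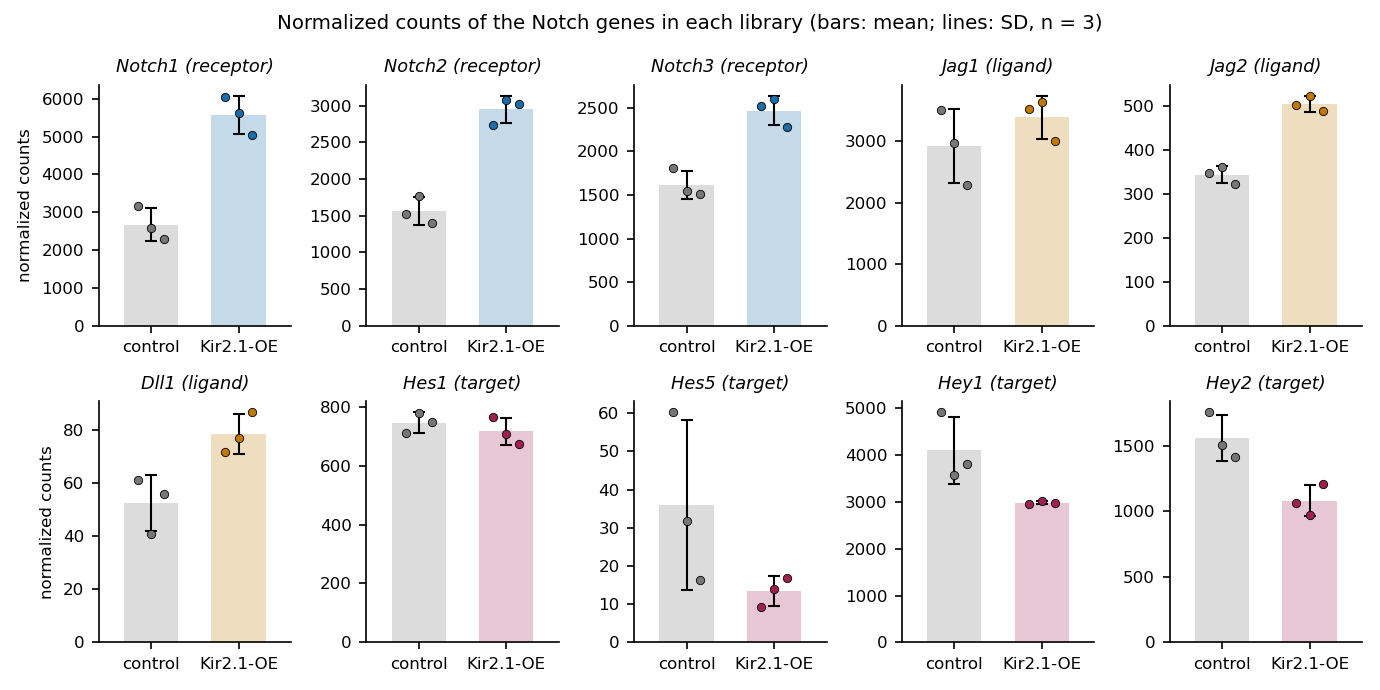
Normalized counts of the 10 Notch genes, 1 panel a gene, with control libraries on the left and Kir2.1-OE libraries on the right of each panel (points: libraries; bars: mean; lines: SD, n = 3 pools). The 3 receptors, Jag2 and Dll1 sit higher in all Kir2.1-OE libraries, Hey1 and Hey2 sit lower, and Jag1, Hes1 and Hes5 overlap.

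Notch1, the receptor required for lateral inhibition in the cochlea (mm10, chr2:26457903-26516663, minus strand, longest transcript 9488 nt), had 6037, 5628 and 5030 normalized counts in the Kir2.1-OE libraries and 3157, 2579 and 2294 in the controls. The means were 5565 ± 506.5 and 2677 ± 439.8 (SD, n = 3), and the lowest Kir2.1-OE library exceeded the highest control. Its log2 fold change was 1.06 (SE 0.119, adjusted p = 0.000212, edgeR), a 2.08-fold difference. Leaving out each library in turn gave log2 fold changes between 0.96 and 1.19.

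Notch2, a second receptor of the same domain layout (chr3:98013527-98150361, plus strand, 10500 nt), had 2736, 3079 and 3023 normalized counts in Kir2.1-OE and 1521, 1766 and 1403 in the controls. All Kir2.1-OE libraries were again above all controls, with means of 2946 ± 183.8 and 1563 ± 185.5. The difference was 1.88-fold, with a log2 fold change of 0.91 (SE 0.0948, adjusted p = 0.000169, edgeR).

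Notch3, best known as the receptor of vascular smooth muscle and pericytes (chr17:32120820-32166852, minus strand, 8016 nt), had 2517, 2601 and 2279 normalized counts in Kir2.1-OE and 1803, 1545 and 1506 in the controls. The groups did not overlap, but the difference was the smallest of the 3 receptors, 1.52-fold with a log2 fold change of 0.61 (SE 0.0892, adjusted p = 0.00063, edgeR). That is just past the 1.5-fold threshold, and the call was lost without Kir2.1-OE replicate 1 (0.58) or 2 (0.54), and without control replicate 2 (0.58) or 3 (0.56). The adjusted p stayed at or under 0.00504 in each of these.

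Within the summed reads of the 3 receptors, Notch3 held 22.3%, 23.0% and 22.1% in the Kir2.1-OE libraries and 27.8%, 26.2% and 29.0% in the controls, so its share was lower in every Kir2.1-OE library. The share of Notch1 was 50.6% ± 2.51 against 45.5% ± 2.76 and overlapped between groups, and that of Notch2 was 26.9% ± 2.53 against 26.8% ± 3.26. The log2 ratio of Notch1 to Notch3 was 1.26, 1.11 and 1.14 in Kir2.1-OE and 0.81, 0.74 and 0.61 in the controls, a difference of 0.45 with no overlap. The receptors thus did not differ between groups by an equal factor.

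None of the 3 ligands was called. Jag1, the ligand of the prosensory domain and later of supporting cells (chr2:137081456-137116644, minus strand, 5612 nt), had 3526, 3642 and 2995 normalized counts in Kir2.1-OE and 3501, 2963 and 2296 in the controls. Kir2.1-OE replicate 3 fell within the control range, and control replicate 1 lay close to the highest Kir2.1-OE libraries. Its log2 fold change was 0.21 (SE 0.141, adjusted p = 0.229, edgeR, and p = 0.2 in a two-sided exact permutation test, in which 3 against 3 cannot go below 0.10).

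Jag2, a Jagged ligand of hair cells (chr12:112907819-112929776, minus strand, 5106 nt), had 500.9, 521.6 and 486.6 normalized counts in Kir2.1-OE and 347.1, 361.6 and 321.6 in the controls. The groups were well apart, and the spread within each was small (SD 17.61 and 20.24). The log2 fold change of 0.55 (SE 0.101, adjusted p = 0.00189, edgeR) passed the adjusted p-value threshold, but at 1.46-fold it missed the fold threshold. It was called when control replicate 2 was left out (0.59), and without a fold threshold.

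Dll1, the Delta ligand of nascent hair cells (chr17:15367354-15376872, minus strand, 3581 nt), was scarce, with 71.85, 76.95 and 86.74 normalized counts in Kir2.1-OE and 61.20, 40.89 and 55.98 in the controls. Every Kir2.1-OE library was above every control library. The log2 fold change was 0.58 (SE 0.236, adjusted p = 0.0662, edgeR), which did not pass. The scarcity limits the precision, since the 45 reads of control replicate 2 alone have a 95% Poisson interval from 32.8 to 60.2 that covers counting error only.

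Hes1, a Notch target and repressor of the hair cell gene Atoh1 (chr16:30064384-30067796, plus strand, 1468 nt), had 765.7, 706.5 and 674.9 normalized counts in Kir2.1-OE and 711.3, 779.6 and 747.1 in the controls. The 2 groups were interleaved. Its log2 fold change was -0.06 (SE 0.0881, adjusted p = 0.598, edgeR; exact permutation p = 0.4, two-sided).

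Hes5, the target most closely tied to lateral inhibition (chr4:154960923-154962371, plus strand, 1273 nt), had the fewest reads of the 10 genes in Kir2.1-OE. It had 9.238, 13.99 and 16.93 normalized counts in Kir2.1-OE and 60.20, 31.80 and 16.29 in the controls. Control replicate 1 was high, while control replicate 3 fell below Kir2.1-OE replicate 3, so the groups overlapped (exact permutation p = 0.2, two-sided). The log2 fold change was -1.42 (SE 0.495, adjusted p = 0.0368, edgeR), or 2.68-fold lower. The summed reads were 39 in Kir2.1-OE (95% Poisson interval 27.7 to 53.3) and 111 in the controls (91.3 to 134), intervals that do not cover the spread between pools. The call did not hold in every fit with 1 library removed. It was kept without Kir2.1-OE replicate 3 (-1.63, adjusted p = 0.0464, edgeR) and without control replicate 3 (-1.77, adjusted p = 0.0104). Without control replicate 1 the log2 fold change was -0.85 with an adjusted p of 0.168 (edgeR), and the call was also lost without control replicate 2 (-1.51, adjusted p = 0.0583), Kir2.1-OE replicate 1 (-1.23, adjusted p = 0.127) or Kir2.1-OE replicate 2 (-1.48, adjusted p = 0.0736).

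Hey1, a hairy-related repressor of prosensory and supporting cells (chr3:8663359-8667256, minus strand, 2423 nt), had 2958, 3021 and 2970 normalized counts in Kir2.1-OE and 4914, 3587 and 3809 in the controls. All Kir2.1-OE libraries were below all controls, and they were close together (SD 33.25) while the controls were spread out (SD 710.7). The log2 fold change of -0.46 (SE 0.11, adjusted p = 0.00709, edgeR) passed the adjusted p-value threshold but was 1.38-fold and so was not called. Without control replicate 1 it was -0.31 (adjusted p = 0.00965, edgeR).

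Hey2 (chr10:30832359-30842801, minus strand, 2550 nt) had 1060, 973.3 and 1211 normalized counts in Kir2.1-OE and 1754, 1506 and 1414 in the controls. The groups again did not overlap. Its log2 fold change was -0.53 (SE 0.108, adjusted p = 0.00324, edgeR), 1.44-fold lower and short of the fold threshold. It was called without replicate 3 of Kir2.1-OE (-0.63), without replicate 3 of the controls (-0.59), or when libraries were scaled by their upper quartile (-0.62).

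Control replicate 1 held the highest value of Hes5, Hey1 and Hey2, and also the highest summed level of 5 erythrocyte markers. Of the 10 supporting cell markers it was the highest control library for 5, among them Sox2 (5105, against 4124 and 3289 in the other controls) and Tectb (282500, against 216300 and 180800), and the lowest for 5, among them Gjb2 (35360, against 41490 and 45830) and Otoa (13090, against 15370 and 16890). Their part in the lower target values was not tested. The spans of Hes5, Notch1, Notch3 and Dll1 also overlap those of annotated genes on the opposite strand. Notch1, Notch2 and Jag2 overlap annotated genes on the same strand. Whether reads of such genes were counted for the Notch genes was not tested. The strand setting of the counting is not given in the sources used here.

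The promoters of Hes5 and Hey2 are shown because, of the 8 Notch genes with a window in the RefSeq promoter table (GRCm38.p6, 250 bases before to 50 after the start), these alone hold the 7-base RBPJ motif GTGGGAA on either strand, and because both genes had lower mean counts in Kir2.1-OE. The motif is found in 6.38% of the 32851 windows in the table and its core TGGGAA, which lies within it, in 25.6%. The 250 bases upstream of each start are given in the direction of the gene, at chr4:154960673-154960922 on the plus strand for Hes5 and chr10:30842784-30843033 on the minus strand for Hey2. Capitals mark each whole match to GTGGGAA or its reverse complement TTCCCAC.
Hes5: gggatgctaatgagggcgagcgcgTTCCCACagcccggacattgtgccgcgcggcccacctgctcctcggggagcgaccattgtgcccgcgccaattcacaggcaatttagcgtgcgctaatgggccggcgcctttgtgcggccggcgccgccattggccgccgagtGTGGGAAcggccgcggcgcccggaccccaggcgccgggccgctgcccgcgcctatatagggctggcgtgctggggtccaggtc
Hey2: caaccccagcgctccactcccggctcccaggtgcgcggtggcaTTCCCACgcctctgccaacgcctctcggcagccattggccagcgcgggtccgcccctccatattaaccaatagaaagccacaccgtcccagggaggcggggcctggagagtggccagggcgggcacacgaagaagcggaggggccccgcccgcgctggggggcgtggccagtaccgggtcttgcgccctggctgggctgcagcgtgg

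In Hes5 the matches begin 226 bases upstream, on the opposite strand, and 83 bases upstream, on the strand of the gene. In Hey2 a match on the opposite strand begins 207 bases upstream and another begins 4 bases upstream on the strand of the gene and runs past the start, beyond the printed stretch. None of the other 6 genes with a window, the 3 receptors and the 3 ligands, held the core. The targets Hes1 and Hey1 had no window, and their mean counts were also lower in Kir2.1-OE (715.7 against 746.0 and 2983 against 4103). Of 45 other pathway genes with a window, 5 held the 7-base motif. They were Spen (log2 fold change 1.59), Psen2 (-0.17), Aph1a (-0.41), Lfng (-0.44) and Hes7, which had too few reads to be tested. A match is a description of these letters and says nothing of binding in this tissue.

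As CPM (counts scaled to a common library total) per kilobase of the longest transcript, Hey1 had the highest level of the 10 genes in both groups, 45.1 ± 7.81 in the controls and 32.8 ± 0.366 in Kir2.1-OE (mean ± SD, n = 3). In the controls the order of levels continued with Hey2 (16.3 ± 1.84), Jag1 (13.9 ± 2.87) and Hes1 (13.5 ± 0.62), neighbors that overlapped in turn. The receptors followed, Notch1 at 7.51 ± 1.23, Notch3 at 5.38 ± 0.536 and Notch2 at 3.97 ± 0.471, each apart from the next. Jag2 (1.79 ± 0.106), Hes5 (0.755 ± 0.466) and Dll1 (0.392 ± 0.0785) were lowest, and Hes5 and Dll1 overlapped.

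In Kir2.1-OE the order of these levels was different in its upper part. Jag1 (16.1 ± 1.64) and Notch1 (15.6 ± 1.42) stood next to Hey1 and overlapped each other, ahead of Hes1 (between 12.2 and 13.9) and Hey2 (11.3 ± 1.26), which also overlapped. Notch3 (8.19 ± 0.556) and Notch2 (7.47 ± 0.466) overlapped, and Jag2 (2.62 ± 0.0919), Dll1 (0.584 ± 0.0563) and Hes5 (0.28 ± 0.0812) were lowest and apart. Notch1 was the fifth gene in the control order and the third in the Kir2.1-OE order. Both orders depend on the transcript chosen, since with the median length of the annotated transcripts Notch1 came first in both groups, at 176 against 116 for Hey1 in the controls and 365 against 84.4 in Kir2.1-OE.

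Because genes of a library share its size factor, ratios within a library were also compared. The log2 ratio of the summed reads of the 4 targets to those of the 3 receptors was -1.24, -1.26 and -1.08 in Kir2.1-OE and 0.20, 0.00 and 0.20 in the controls. Target reads were thus about as many as receptor reads in the controls and fewer in every Kir2.1-OE library, a difference of -1.33 on the log2 scale. Ligands relative to receptors differed by -0.64 and targets relative to ligands by -0.69, both without overlap. Among the targets, Hey1 relative to Hes1 was lower by a log2 difference of -0.39 and Hey2 relative to Hes1 by -0.47, and Hes1 made up 14.9% ± 1.06 of target reads in Kir2.1-OE against 11.7% ± 1.93 in the controls, all without overlap. Among the ligands, Jag2 relative to Jag1 differed by 0.32. The log2 ratio of Hes1 to Hes5 overlapped between groups. These ratios are descriptions without a test, and the genes in most of them differ in transcript length, which bears on their values.

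In these libraries the log2 fold change of a gene went with the length of its longest annotated transcript. The median over all genes tested was -0.34 under 2000 nt, -0.06 from 2000 to 4000 nt, 0.29 from 4000 to 8000 nt and 0.81 over 8000 nt. The share of genes called higher was 2.47%, 6.68%, 26.3% and 64.0% in these classes, and the share called lower was 15.1%, 3.69%, 1.06% and 0.677%. The 3 roles differ in length in the same order, since all 3 receptors exceed 8000 nt and all 4 targets are under 4000 nt. Length and the role in the pathway therefore cannot be told apart for receptors against targets as whole groups.

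**Figure D2:**
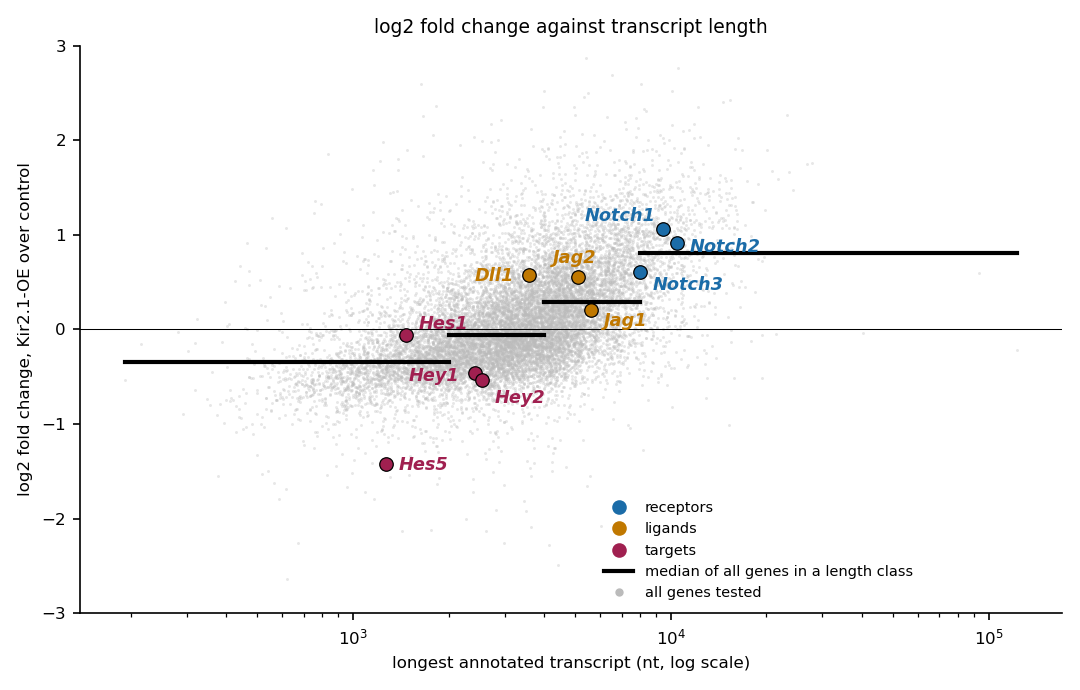
log2 fold change (Kir2.1-OE over control) against the longest annotated transcript in nt on a log scale, with gray points for all genes tested, black lines for the median of each of 4 length classes, and colored points for the 10 Notch genes by role (5 genes beyond a log2 fold change of 3 lie outside the plot). Notch1, Notch2 and Notch3 lie near the median of the longest class, Hes5 lies far below that of the shortest, and Dll1 lies above and Hey1 and Hey2 below that of the class they share.

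Within its own length class, each gene stood as follows. The fold changes of Notch1, Notch2 and Notch3 were higher than those of 67.5%, 56.9% and 35.8% of genes over 8000 nt, so all 3 lay in the middle of their class. Jag1 and Jag2 were higher than 43.5% and 69.2% of genes from 4000 to 8000 nt. Dll1 was higher than 90.7% of genes from 2000 to 4000 nt, whereas Hey1 and Hey2 were higher than only 10.5% and 6.86% of the same class. Hes1 was higher than 77.5% and Hes5 than 0.696% of genes under 2000 nt. Dll1, Hey1 and Hey2 thus share a length class and have values on either side of its median. Dll1 is longer (3581 nt) than Hey1 (2423 nt) and Hey2 (2550 nt), so they are not matched for length. The log2 ratio of Hey1 and Hey2 together to Dll1 was 5.81, 5.70 and 5.59 in Kir2.1-OE and 6.77, 6.96 and 6.54 in the controls. That is a difference of -1.06 with no overlap and without correction for length.

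When trends on transcript length and GC content were entered in the edgeR model as offsets, none of the 10 Notch genes was called, beside 8.02% of all genes tested called higher and 2.46% called lower. The log2 fold changes became 0.19 for Notch1 (adjusted p = 0.119, edgeR), 0.14 for Notch2 (adjusted p = 0.261) and -0.26 for Notch3 (adjusted p = 0.0277), so that Notch3 turned direction. Genes over 8000 nt kept a median of 0.31 under these offsets, so the trend was not fully removed at the lengths of the receptors. Jag1 and Jag2 also turned, to -0.14 (adjusted p = 0.468) and -0.08 (adjusted p = 0.565), and Dll1 was 0.42 (adjusted p = 0.203).

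Of the target genes, Hey1 under the offsets was -0.34 (adjusted p = 0.0414, edgeR) and Hey2 -0.31 (adjusted p = 0.0391), both still lower and short of the fold threshold. Hes5 was -1.19 (adjusted p = 0.0986), and Hes1 turned to 0.29 (adjusted p = 0.0462). With replicate numbers also entered as a block, Hey1 was -0.32 (adjusted p = 0.0652, edgeR), Hey2 -0.31 (adjusted p = 0.0796) and Hes1 0.29 (adjusted p = 0.112). None of these passed the adjusted p-value threshold. Dll1, Hes5, Hey1, Hey2, Notch1 and Notch2 kept their direction under every alternative run, and Notch3, Jag1, Jag2 and Hes1 did not.

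**Figure D3:**
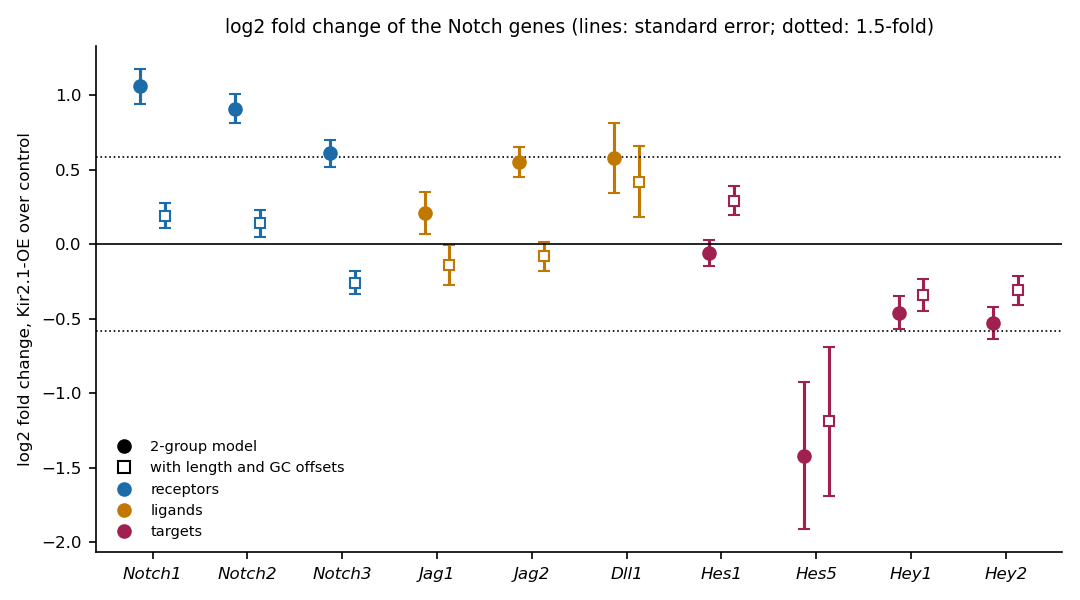
log2 fold change (Kir2.1-OE over control) of the 10 Notch genes in the 2-group model (filled circles) and with length and GC offsets (open squares), with standard errors as lines and the 1.5-fold threshold dotted. The receptors move from between 0.61 and 1.06 to between -0.26 and 0.19, whereas Hey1 and Hey2 stay below 0 at -0.34 and -0.31.

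A list of 55 other genes of the pathway was read from the same model. Of these, 51 were tested and 12 were called higher, 1 lower and 38 not, beside 15.5% of all genes tested called higher and 5.08% lower, and the median log2 fold change was 0.13, against 0.01 for all genes tested. Dll3, Hes2, Hes3 and Hes7 had too few reads. The calls followed length here too, with 6 of the 7 genes over 8000 nt and 6 of the 25 from 4000 to 8000 nt called higher but none of the 14 from 2000 to 4000 nt, and the shortest transcript among those called higher was that of Fbxw7, at 4473 nt. Under the offsets 4 were called higher (Dtx3l 0.83, Fbxw7 0.87, Maml3 0.78 and Spen 0.61) and 2 lower (Dlk2 -0.87 and Neurl1a -0.84), beside 8.02% and 2.46% of all genes tested.

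Of the other receptor and ligands, Notch4, an endothelial receptor, was higher, from 287.1 ± 37.67 to 631.7 ± 65.37 normalized counts (log2 fold change 1.14, SE 0.13, adjusted p = 0.000227, edgeR). Under the offsets Notch4 was at 0.3 (adjusted p = 0.0794, edgeR) and was not called. Dlk2, a non-canonical ligand-like protein, was lower, from 267.1 ± 46.49 to 136.9 ± 20.73 (-0.96, adjusted p = 0.00203). Dll4 (0.50, adjusted p = 0.0199) and Dner (0.57, adjusted p = 0.0015), a neuronal ligand-like protein, missed the fold threshold.

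Of 9 genes that cut the receptor, only Furin, the protease that cuts it on its way to the surface, was called, with a log2 fold change of 0.93. Adam10 (0.13) and the gamma-secretase subunit Ncstn (0.03) were close to 0. The subunits Aph1a (-0.41, adjusted p = 0.00216, edgeR), Aph1b (-0.33, adjusted p = 0.0142) and Psenen (-0.45, adjusted p = 0.000736) were lower by less than the fold threshold. Under the offsets Aph1a was -0.39 (adjusted p = 0.00502, edgeR) and Aph1b -0.41 (adjusted p = 0.00936), while Psenen was 0.07 (adjusted p = 0.352). None of the 5 genes that add sugars to the receptor was called. Of these, Lfng, a glycosyltransferase that shifts the response of a receptor between Delta and Jagged ligands, had a log2 fold change of -0.44 (adjusted p = 0.00771) and Poglut1 of -0.47 (adjusted p = 0.00291).

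Of 13 genes of ubiquitin ligation and endocytosis, Mib1, the ligase that lets ligands be pulled into the sending cell, was higher (0.86, adjusted p = 0.000206, edgeR), as were Neurl1b (1.13), Dtx3l (1.03) and Fbxw7 (0.97), the last of which marks the intracellular domain for breakdown. In the nuclear activation complex Rbpj itself had a log2 fold change of -0.04 (adjusted p = 0.704, edgeR), whereas the coactivators Maml3 (1.43), Ep300 (1.22) and Maml2 (0.97) were higher. Of 9 corepressors, Spen (1.59), Ncor1 (0.98) and Tle3 (0.70) were called higher and none was called lower, although Hdac1 was lower by less than the fold threshold (-0.39, adjusted p = 0.0019, edgeR). Spen (12299 nt), Ncor1 (9037 nt), Tle3 (8638 nt), Mib1 (10231 nt), Ep300 (9566 nt) and Maml3 (8288 nt) all exceed 8000 nt. In that length class 64.0% of all genes tested were called higher. Under the offsets Spen (0.61) and Maml3 (0.78) were still called, while Ncor1 (0.45), Tle3 (0.0), Mib1 (0.53) and Ep300 (0.58) were not. The remaining targets were not called, with Heyl at 0.29 (adjusted p = 0.0476), Hes6 at -0.43 (adjusted p = 0.00799) and Nrarp, a feedback inhibitor, at 0.04 (adjusted p = 0.73).

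**Figure D4:**
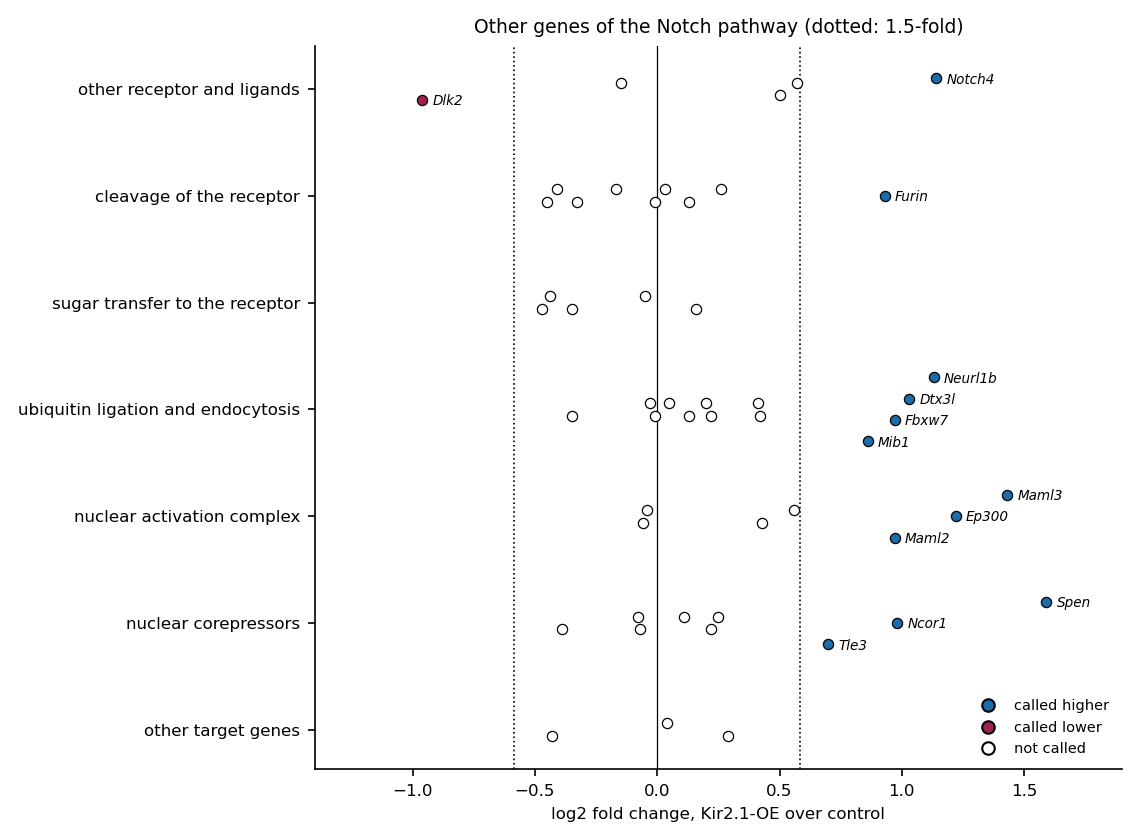
log2 fold change (Kir2.1-OE over control) of the 51 tested genes of the wider pathway, 1 row a role and 1 point a gene, with the 1.5-fold threshold dotted and genes called higher in blue, lower in red and not called in white. Genes called higher lie in 5 of the 7 roles, and none of the sugar transfer or other target genes was called.

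Markers of the cells that carry Notch components were read beside these values. The counts of markers stand beside 15.5% of all genes tested called higher and 5.08% called lower. Of 10 supporting cell markers 3 were called higher (Prox1 1.13, Otoa 0.89 and Otog 0.81) and 2 lower. The lower ones were Tectb, at -0.69, and Fabp7, from 6189 ± 651.0 to 3096 ± 493.8 normalized counts. The median log2 fold change of the 10 markers was 0.06. Their summed level was 10200 to 10700 CPM in Kir2.1-OE and 12000 to 14300 in the controls. Tectb and Epyc had the highest counts in this sum, with control means of 226500 and 162500. Under the offsets 2 of the 10 supporting cell markers were called higher (Otoa 0.79 and Prox1 0.75) and 0 lower, with a median of -0.02. That stands beside 8.02% and 2.46% of all genes tested. Tectb (-0.53) and Fabp7 (-0.47) were still lower but short of the fold threshold, and Otog was -0.12. Of 10 hair cell markers 4 were called higher (Myo7a 1.17, Otof 0.76, Calb2 0.68 and Slc26a5 0.62) and none lower, with a median of 0.07. The summed levels were 1370 to 1490 CPM in Kir2.1-OE and 1190 to 1330 in the controls. Under the offsets 2 of the 10 were called higher and 1 lower (Strc, -0.64), while Myo7a (0.42) and Otof (0.0) were not called. Some vascular markers were higher, as were Notch3 and Notch4. Of 8 endothelial markers 5 were called higher, among them Flt1 (1.49) and Cdh5 (0.99), while Emcn (-0.20, adjusted p = 0.0438, edgeR) and Cldn5 (-0.03) were not called, with summed levels of 340 to 356 against 265 to 304 CPM, and 3 of 8 mural cell markers were higher, with 344 to 357 against 219 to 267, while Kcnj8 (-0.32) and Des (0.01) were not called. Under the offsets 3 endothelial and 2 mural cell markers were called higher, beside 8.02% of all genes tested. The medians were 0.45 for the endothelial and 0.08 for the mural cell markers. Flt1 (0.93) and Cdh5 (0.84) were still called, while Kdr (0.46), Tie1 (0.24), Cspg4 (0.06) and Pdgfrb (0.06) were not. Notch3 was at -0.26 and Notch4 at 0.3 in the same fit, and neither was called. Called higher were also 3 of 6 neuron markers, 2 of 6 glia markers and 2 of 5 tested cartilage and bone markers. Summed levels were 483 to 1110 against 280 to 423 CPM for neuron markers and 9410 to 12400 against 6850 to 8720 for glia markers. Those of cartilage and bone markers were 21000 to 25000 against 10300 to 14100 CPM. Under the offsets 3 neuron, 3 glia and 1 of the cartilage and bone markers were called higher. Matn1 (-0.57, adjusted p = 0.0416, edgeR) and Syt1 (-0.13) went the other way and were not called. Erythrocyte markers were lower in 3 of 5, with 289 to 367 against 477 to 1190 CPM. Under the offsets 0 of the 5 were called lower, with a median of -0.66. Control replicate 1 was the highest control, with Hba-a1 at 29800 against 10560 and 12430 in the other controls. Of 6 macrophage markers none was called, with 168 to 180 against 151 to 158 CPM. No marker was at 0 in every library. The part of these cells in the values of the Notch genes was not tested.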

How the data were processed

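The study made poly(A) libraries from 3 pools a group and sequenced them as paired 150 bp reads. The authors mapped these to mm10 with the nf-core RNA pipeline and deposited expected counts, the number of reads that Salmon estimated for each gene, neither scaled for depth nor divided by length. Tool versions, annotation and strand setting are not given in the sources used here. Counts were rounded and fitted in edgeR 4.0.16 (R 4.3.3) on 6 libraries with TMM factors, the filterByExpr filter and the quasi-likelihood test. P-values were adjusted by Benjamini-Hochberg, and a call needed an adjusted p under 0.05 together with a fold above 1.5. Replicates of a group differed beyond sampling noise (chi-square per degree of freedom 15.69 to 31.15). Lengths and GC content were those of the longest GENCODE vM21 transcript (23376 genes matched by symbol, 693 by an older symbol, 342 unmatched). Offsets came from a robust loess trend (span 0.4) of each library. Motifs were searched in a RefSeq promoter table. The script was tested on simulated data. Alternatives used DESeq2 1.42.0 and limma 3.58.1. The named genes were the 10 Notch genes and the listed pathway genes and markers, and 2 genes of the planned pathway list are not reported here. Members and lists were chosen with earlier results of these data known.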

Additional observations from a re-analysis of the deposited data

How the results depend on the processing

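Of all genes tested, 2365 were called higher and 778 lower. With length and GC offsets these counts were 1228 and 376, with the length offset alone 1262 higher, with glmTreat 832 and 57, with no fold change threshold 4184 and 3590, and with upper quartile scaling, which moved the median by -0.089, 1897 and 1378 (57.9% of calls higher, against 75.2%). The length and the GC offset alone were chosen after seeing the data. The replicate block gave 2220 higher and 718 lower, and with both offsets 939 and 304. The numbers were not taken to pair the pools, since the deviations of same-numbered pools correlated at -0.106, -0.232 and -0.213. The file of control replicate 1 carries the number 4 in its header.

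Of the 10 Notch genes, 0 were called higher with the offsets, with block and offsets, or with the length offset alone, against 3. The count was 2 with upper quartile scaling, the GC offset alone or glmTreat, 4 with no fold threshold, and 2 to 3 without 1 library. Called lower were 2 with upper quartile scaling and 3 with no fold threshold, against 1. The count was 0 with the replicate block, the offsets, block and offsets, the length offset alone, limma-voom or glmTreat, and with a minimum of 10 counts in every library, which removed Hes5. Without 1 library it was 0 to 2. The direction turned with both offsets, with block and offsets, and with the length offset alone, to -0.26, -0.26 and -0.02 for Notch3, -0.14, -0.12 and -0.12 for Jag1, and 0.29, 0.29 and 0.24 for Hes1. Jag2 was -0.08 with both offsets, with and without the block, and 0.30 with length alone. The cause was not tested.

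Of the wider list, 4 were called higher with the offsets, with and without the block, 6 with the length offset alone and 22 with no fold threshold, against 12. Called lower were 2 in each of the 3 offset models, 0 with glmTreat and 9 with no fold threshold, against 1. The log2 difference in the ratio of target to receptor reads was -1.14 without the most abundant target and receptor. Depth limits Hes5 and Dll1 most.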
